A study of Mus musculus with 30 samples.

Results

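The contractile genes of smooth muscle and myofibroblasts were followed through mesenchymal cells of the mouse intestine. The 10 genes were chosen by name, with earlier results of these data known. Counts of called members beside the shares of all genes are therefore descriptions. Of these, 7 encode parts of the actomyosin apparatus that smooth muscle and myofibroblasts share (Acta2, Myh11, Tagln, Mylk, Myl9, Tpm2 and Cnn1). Visceral muscle is represented by Actg2 and Des, and the calcium store of muscle by Casq2. They were 10 of the 20093 genes in the deposited tables, and each was listed in all 14 tables.

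All mice were C57BL/6 animals that carried ColVI-cre, in which collagen VI regulatory sequence drives Cre recombinase, together with Rosa mTmG, so every group below shares both transgenes. In cells with Cre activity, and in their descendants, the mTmG reporter switches from the red membrane protein Tomato to green GFP. GFP therefore records past or present Cre activity and not the level of collagen VI at the time of sorting. After dextran sulfate sodium (DSS), which injures the colon epithelium and causes colitis, GFP-positive, Tomato-positive and unsorted cells of the colon were collected. The same 3 populations came from the normal colon. From the normal small intestine, cells with high GFP (GFPhi), low GFP (GFPlo), Tomato only and unsorted cells were collected. Each of the 10 groups has 3 labelled replicates. Of these 30 libraries 29 were used, and the first unsorted replicate from small intestine is not analysed here. The sources used here give no age and do not say which libraries share an animal, so p-values measure the spread between these samples.

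Contraction of smooth muscle starts when calcium and calmodulin activate myosin light chain kinase, encoded by Mylk. The kinase phosphorylates the regulatory light chain (Myl9) of smooth muscle myosin (Myh11), which then pulls on filaments of smooth muscle actin (Acta2, or the enteric form Actg2). Tropomyosin (Tpm2), calponin (Cnn1) and transgelin (Tagln) lie along the actin filaments, desmin (Des) forms intermediate filaments between them, and calsequestrin 2 (Casq2) binds calcium inside the sarcoplasmic reticulum. In the gut wall these genes are known from the external muscle, the muscularis mucosae, vessel walls and the myofibroblasts and telocytes under the epithelium. Many are known targets of serum response factor, which binds a DNA element called the CArG box.

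RefSeq promoter windows (assembly GRCm38.p6), each from 250 bases before to 50 bases after a RefSeq start, were found for 7 of the 10 genes. The window of Mylk (chromosome 16, 34784700 to 34784999) lies inside the gene, whose start in the deposited tables is 34745210. A CArG box on either strand was held by 1 of the 7 windows, that of Myl9, and by 1.63% of 32851 mouse promoter windows. With up to 1 mismatch it was held by 3 of the 7 (Acta2, Myl9 and Casq2) and by 21.1% of all windows. These 3 genes are shown because each was also among the members with higher values in GFP-positive than in Tomato-positive colon cells. Mylk was higher there without a match in its window, and Tagln was higher there but had no window. A link between matches and levels was not tested. For Myl9 and Casq2 the window is shown up to the gene's start in the deposited tables, which for Myl9 lies upstream of the RefSeq start, and for Acta2 30 bases round each match. Capitals mark the matching bases, which for Casq2 join a pair of overlapping matches. A match describes the letters and is not evidence of binding.
Acta2, upstream match, chr19:34255438-34255467, minus strand: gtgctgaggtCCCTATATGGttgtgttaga
Acta2, match near the start, chr19:34255388-34255417, minus strand: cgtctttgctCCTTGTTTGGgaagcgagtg
Myl9, chr2:156775214-156775419, plus strand: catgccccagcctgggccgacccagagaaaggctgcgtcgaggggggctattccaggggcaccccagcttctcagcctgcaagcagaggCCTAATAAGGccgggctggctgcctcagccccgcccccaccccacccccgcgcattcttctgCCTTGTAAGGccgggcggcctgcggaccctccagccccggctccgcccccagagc
Casq2, chr3:102086165-102086414, plus strand: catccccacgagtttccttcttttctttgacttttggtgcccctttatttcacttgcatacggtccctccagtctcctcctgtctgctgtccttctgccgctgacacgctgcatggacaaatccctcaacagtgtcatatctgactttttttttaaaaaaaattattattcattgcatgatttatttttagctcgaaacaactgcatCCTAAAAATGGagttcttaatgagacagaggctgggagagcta
Distances are counted to the RefSeq start. The exact box of Myl9 began 161 bases before it, and a match with 1 mismatch began 99 bases before it. Those of Casq2, each with 1 mismatch, began 43 and 42 bases before the start. The matches of Acta2, each with 1 mismatch, began 84 and 34 bases before the start. The motif TATAAA was found on either strand in 0 of the 7 windows and in 13.6% of all. The motif GGAATG, known as a TEAD site, was in 2 of the 7 and in 14.7% of all, and the E-box CANNTG was in 6 of the 7 and in 72.3% of all.

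RNA was read at its 3′ end, so values are normalised read counts as the authors scaled them, and the kinase and telokin transcripts of Mylk cannot be told apart. Normal colon, DSS colon and small intestine were each on a scale of their own. Depth, estimated in the 26 of 29 libraries where the value of 1 read could be resolved, was about 2480000 to 3840000 reads in the DSS colon, 3180000 to 4420000 in the normal colon and 1230000 to 4030000 in the small intestine. Unsorted libraries differed from the mesenchymal label: the summed immune marker level was 12096 to 48805 in unsorted normal colon, against 87 to 441 in its GFP-positive and 971 to 4615 in its Tomato-positive libraries. Unsorted colon replicate 2 was highest in its group, with 1844 for the skeletal muscle actin Acta1 and 2262 for the epithelial gene Epcam, against 108 and 1082 for Acta1 and 212 and 1186 for Epcam in the other two unsorted libraries of the normal colon. Replicate 1 of the Tomato-positive small intestine was the shallowest library.

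Tagln and Des need a limit before any of their values is read. The 3′ end of Tagln (chromosome 9, 45929628 to 45936058) overlaps that of Pcsk7, a protease gene on the opposite strand (chromosome 9, 45906497 to 45929726). In the 9 libraries of the normal colon the deposited values of the 2 genes differed by 0 to 5, and in the 9 of the DSS colon by 0 to 3. In the 11 libraries of the small intestine they differed by 46 to 1095. Des (chromosome 1, 75360329 to 75368579) and the opposite-strand Gm15179 (chromosome 1, 75368212 to 75375012) differed by 0 to 4 in the normal colon and by 0 to 6 in the DSS colon. Reads of each pair cannot be told apart in the colon, so the levels of Tagln and Des are not comparable between colon and small intestine. The test of a difference between tissues, given below, included both genes and carries this limit. The plot of overlapping genes shows both pairs.

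**Figure D1:**
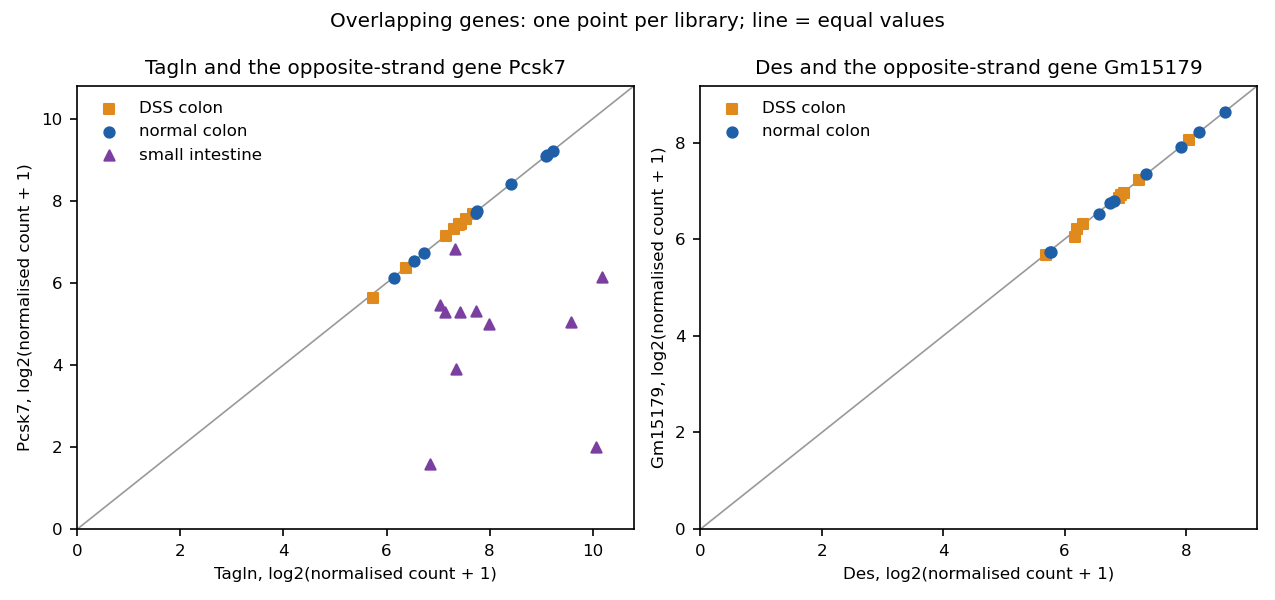
Each point is a library, with Tagln against Pcsk7 on the left and Des against Gm15179 on the right, both axes as log2(normalised count + 1) and the line marking equal values. The colon libraries lie on or beside the line in both panels, the 11 small intestine libraries lie below it for Tagln, and the right panel holds colon libraries alone.

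Levels differed widely among the members (coordinates from the tables, mm10), on a scale of 3′ end counts in which each transcript gives reads from its end and no length correction applies. Mylk (chromosome 16, 34745210 to 35002420) and Acta2 (chromosome 19, 34241090 to 34255336) were read most, and Actg2 (chromosome 6, 83512905 to 83536265) and Cnn1 (chromosome 9, 22099281 to 22109630) were among the least read in sorted cells. The 7 shared actomyosin genes together took 0.315% of the normalised counts of GFP-positive DSS colon libraries, 0.105% of Tomato-positive and 0.186% of unsorted ones (means of 3). In the normal colon the share was 0.312% in GFP-positive, 0.0682% in Tomato-positive and 0.262% in unsorted libraries. In the small intestine it was 0.484% in GFPhi, 0.136% in GFPlo, 0.111% in Tomato-positive and 0.195% in the 2 unsorted libraries.

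Actg2 and Des together took 0.00303% of the normalised counts in GFP-positive and 0.00418% in Tomato-positive cells of the normal colon, against 0.0136% in unsorted cells. In the DSS colon the share was 0.00467% in GFP-positive, 0.00458% in Tomato-positive and 0.0125% in unsorted cells. In the small intestine it was 0.00971% in GFPhi, 0.00375% in GFPlo, 0.00225% in Tomato-positive and 0.00927% in unsorted cells. The mean share of the visceral pair was close in GFPhi and unsorted cells of the small intestine, but the GFPhi libraries scattered. They had 0.0160%, 0.00519% and 0.00796%, against 0.0103% and 0.00824% in the unsorted libraries. In both colon sets, where the values of Des include Gm15179, the mean share was highest in unsorted cells. In bulk samples fewer cells of a type and less RNA per cell cannot be told apart.

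**Figure D2:**
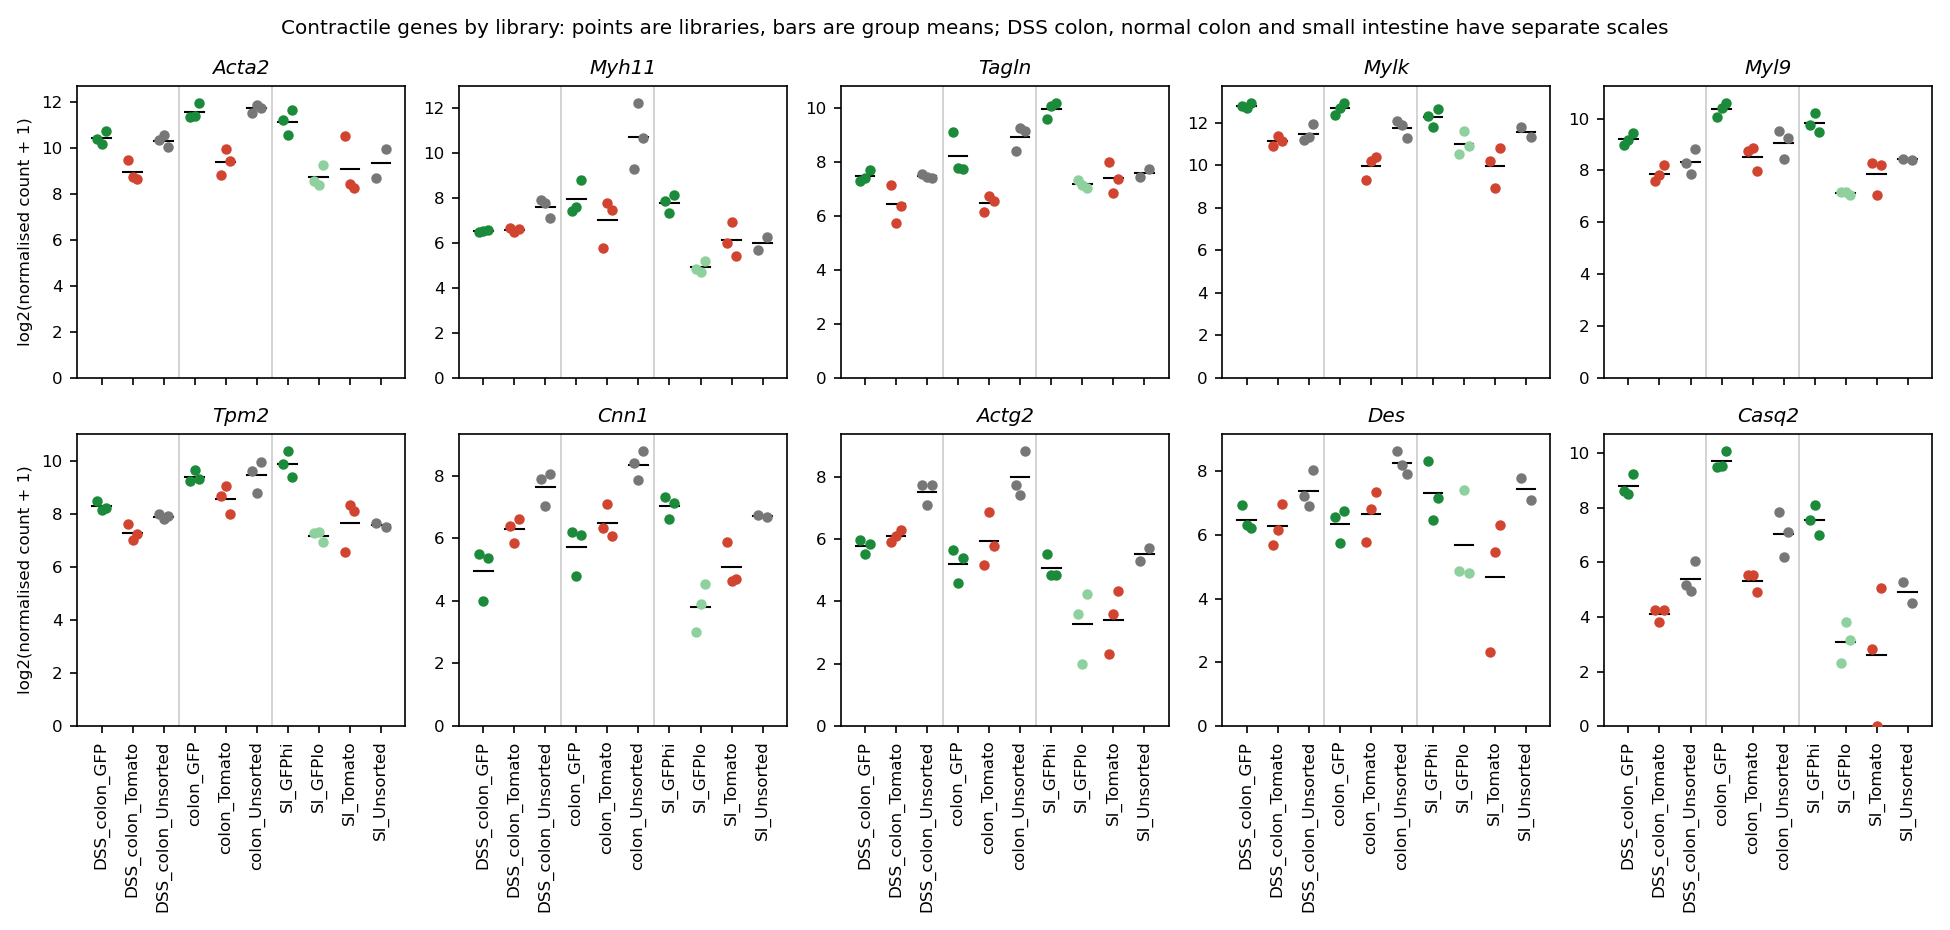
Values of the 10 genes in each library as log2(normalised count + 1), points for libraries and bars for the mean of the points in each of the 10 groups, with grey lines between sets of separate scale. Casq2 is highest in the GFP-positive group of each colon set and in GFPhi cells of the small intestine. Cnn1, Actg2 and Des are highest in the unsorted group of each colon set.

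The first comparison asked how GFP-positive cells of the normal colon differed from Tomato-positive cells beside them. Of the 10 members 5 passed an adjusted p of 0.05 with limma, all higher in GFP-positive cells, where 5.98% of 13346 genes tested passed in either direction, 2.97% higher and 3.01% lower. They were Casq2, Mylk, Acta2, Myl9 and Tagln. Libraries of both groups did not overlap for 6 members, against 22.1% of all genes. The median log2 fold change of the members was 1.33, and that of all genes was 0.00.

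Casq2 (chromosome 3, 102086415 to 102146514) had 726, 733 and 1099 normalised counts in GFP-positive libraries and 45, 46 and 29 in Tomato-positive ones. Each GFP-positive library was far above every Tomato-positive library. The log2 fold change was 4.38 (SE 0.28, limma adjusted p = 4.1e-05). Mylk was read at 5329, 6702 and 7868 in GFP-positive and at 633, 1176 and 1336 in Tomato-positive libraries. The groups were well apart, and the log2 fold change was 2.71 (SE 0.34, adjusted p = 0.00085).

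Acta2, the actin most used to define myofibroblasts, stood at 2607, 2668 and 4053 in GFP-positive and at 455, 1005 and 697 in Tomato-positive libraries. The groups did not overlap, and the log2 fold change was 2.15 (SE 0.34, adjusted p = 0.00326). Myl9 (chromosome 2, 156775420 to 156781658) gave 1059, 1354 and 1570 in GFP-positive cells against 426, 463 and 250 in Tomato-positive cells. Again every GFP-positive library was higher, with a log2 fold change of 1.83 (SE 0.30, adjusted p = 0.00438). Tagln, read together with Pcsk7 here, had 543, 215 and 213 in GFP-positive and 70, 105 and 92 in Tomato-positive libraries. Its log2 fold change of 1.72 (SE 0.37, adjusted p = 0.0187) missed the threshold without GFP-positive replicate 1 (adjusted p = 0.0512) and without Tomato-positive replicate 3 (adjusted p = 0.0522).

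The other 5 members did not pass. Tpm2 (chromosome 4, 43514711 to 43523765) had 601, 798 and 639 in GFP-positive and 401, 521 and 255 in Tomato-positive libraries. These groups did not overlap, at a log2 fold change of 0.84 (adjusted p = 0.158). Myh11 (chromosome 16, 14194527 to 14291408), the myosin heavy chain, stood at 173, 196 and 446 in GFP-positive and 54, 219 and 177 in Tomato-positive libraries (0.94, adjusted p = 0.401), and its groups overlapped. Cnn1 had 72, 27 and 68 in GFP-positive and 79, 136 and 66 in Tomato-positive libraries, with a log2 fold change of −0.79 (adjusted p = 0.38). The visceral genes also overlapped between the groups. Actg2 had 49, 23 and 41 in GFP-positive and 35, 115 and 54 in Tomato-positive libraries (−0.73, adjusted p = 0.475). Des had 94, 53 and 107 in GFP-positive and 54, 111 and 162 in Tomato-positive libraries (−0.29, adjusted p = 0.801).

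In the DSS colon 7 of 10 members passed between GFP-positive and Tomato-positive cells, 6 higher and 1 lower, where 17.1% of 12570 genes passed, 8.22% higher and 8.9% lower. Libraries did not overlap for 7 members, against 33.6% of genes. The 5 genes called in the normal colon were called here in the same direction, and Tpm2 and Cnn1 were called beside them. The members' median log2 fold change was 1.02, against 0.01 over all genes.

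Casq2 had 393, 368 and 600 normalised counts in GFP-positive and 18, 13 and 18 in Tomato-positive DSS libraries. Every GFP-positive library was far above every Tomato-positive one, at a log2 fold change of 4.69 (SE 0.24, adjusted p = 1.99e-08). Mylk was read at 7006, 6549 and 7932 in GFP-positive and 1896, 2645 and 2244 in Tomato-positive libraries (1.67, SE 0.19, adjusted p = 2.05e-05). Acta2 had 1365, 1165 and 1696 in GFP-positive and 714, 424 and 407 in Tomato-positive libraries (1.48, SE 0.23, adjusted p = 0.000308). In both genes all GFP-positive libraries lay above all Tomato-positive ones. Myl9 stood at 501, 576 and 696 in GFP-positive and 190, 223 and 295 in Tomato-positive libraries (1.33, adjusted p = 0.000286), and Tpm2 at 354, 284 and 298 in GFP-positive and 194, 128 and 149 in Tomato-positive libraries (1.0, adjusted p = 0.0023). Both were higher in every GFP-positive library.

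Cnn1, an actin-bound inhibitor of myosin, was lower in GFP-positive DSS cells, with 44, 15 and 40 normalised counts in GFP-positive and 82, 57 and 96 in Tomato-positive libraries. The groups did not overlap, and the log2 fold change was −1.33 (SE 0.36, adjusted p = 0.0231). Without GFP-positive replicate 2 it was −0.85 (adjusted p = 0.0655), without Tomato-positive replicate 1 it was −1.28 (adjusted p = 0.0721) and without Tomato-positive replicate 3 it was −1.17 (adjusted p = 0.0669). Tagln, again read with Pcsk7, had 157, 169 and 204 in GFP-positive and 141, 52 and 82 in Tomato-positive libraries (1.05, adjusted p = 0.0264). It missed the threshold without any 1 GFP-positive library or without Tomato-positive replicate 2 or 3, with adjusted p of 0.0556 to 0.105. Without Tomato-positive replicate 1, the highest of its group, it passed (1.41, adjusted p = 0.000286).

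The remaining 3 members did not pass in the DSS colon. Myh11 had 90, 93 and 94 in GFP-positive and 100, 90 and 99 in Tomato-positive libraries (−0.06, adjusted p = 0.874, 0.018 when libraries were scaled to equal totals). Actg2 had 62, 45 and 56 in GFP-positive and 59, 67 and 77 in Tomato-positive libraries (−0.32, adjusted p = 0.386). Des had 121, 78 and 73 in GFP-positive and 51, 71 and 125 in Tomato-positive libraries (0.20, adjusted p = 0.712). All 3 overlapped between the groups.

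Marker genes of other cells moved with some of these values. The 7 telocyte and subepithelial myofibroblast markers, all of them in the tables, summed to 9376 to 11037 in GFP-positive libraries of the normal colon and to 2107 to 2325 in Tomato-positive ones. After DSS they summed to 9357 to 10297 in GFP-positive and 1673 to 2115 in Tomato-positive cells. The 9 visceral smooth muscle markers, 4 of them members, summed to 1377 to 1851 in GFP-positive and 1798 to 2157 in Tomato-positive normal colon, and after DSS to 840 to 958 in GFP-positive and 1264 to 1392 in Tomato-positive cells. The 9 pericyte and vascular muscle markers summed to 1446 to 1481 in GFP-positive and 1329 to 1596 in Tomato-positive normal colon. After DSS these summed to 2590 to 3225 in GFP-positive and 1394 to 1974 in Tomato-positive cells. The 6 markers of Cd34-positive fibroblasts ran against the called contractile genes. They summed to 4075 to 7824 in GFP-positive and 16151 to 20875 in Tomato-positive normal colon, and after DSS to 2779 to 3553 in GFP-positive and 8417 to 8986 in Tomato-positive cells. None of the markers of these 4 lists was at 0 in a sorted colon library. The 4 markers of interstitial cells of Cajal summed to 430 to 596 in GFP-positive and 121 to 161 in Tomato-positive normal colon, and after DSS to 132 to 158 in GFP-positive and 65 to 137 in Tomato-positive cells. Within that list the genes split. In the normal colon the chloride channel gene Ano1 was at 199 to 235 in GFP-positive and 23 to 50 in Tomato-positive libraries, and the factor Etv1 at 228 to 359 in GFP-positive and 84 to 98 in Tomato-positive libraries. The receptor Kit, which defines these cells, was at 1 to 3 in GFP-positive and 13 to 17 in Tomato-positive libraries, and Thbs4 was at 0 to 7 in both. The part of these cells in the contractile values was not tested.

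In the small intestine every GFPhi library lay above every Tomato-positive library in all 10 members. Of the 10 members 3 passed the test (Tagln, Mylk and Myl9), all higher, where 0.894% of 12412 genes passed and 0.395% were higher. Libraries did not overlap for 16.2% of all genes, and 10 of 10 members had an unadjusted p under 0.05, against 10.6% of all genes. The members' median log2 fold change was 2.14, against 0.06 over all genes.

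Tagln had 762, 1064 and 1165 normalised counts in GFPhi and 253, 114 and 162 in Tomato-positive libraries. The log2 fold change was 2.55 (SE 0.36, adjusted p = 0.00664), and without GFPhi replicate 3 it missed the threshold (2.42, adjusted p = 0.0600). Mylk was read at 5039, 3537 and 6506 in GFPhi and at 1166, 491 and 1800 in Tomato-positive libraries. All GFPhi values were above the Tomato-positive ones (2.27, SE 0.45, adjusted p = 0.0413). Myl9 had 863, 1191 and 718 in GFPhi and 312, 131 and 296 in Tomato-positive libraries (1.97, SE 0.39, adjusted p = 0.0362). Mylk missed the threshold without any 1 GFPhi library or without Tomato-positive replicate 1 or 2, with adjusted p of 0.0726 to 0.209. Myl9 missed it without any 1 of the 6 libraries, with adjusted p of 0.0594 to 0.110. Without the trend and robust variance settings of limma, the calls of Tagln, Mylk and Myl9 were all lost (adjusted p = 0.108 to 0.240).

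Acta2 had 2358, 1508 and 3279 in GFPhi and 1473, 349 and 309 in Tomato-positive libraries of the small intestine. Tomato-positive replicate 1 lay just under the lowest GFPhi library. The log2 fold change was 2.06 (SE 0.59, adjusted p = 0.227), and without that library it was 2.78 (adjusted p = 0.0144). Tpm2 had 939, 1329 and 660 in GFPhi and 94, 321 and 273 in Tomato-positive libraries (2.21, adjusted p = 0.052) and Myh11 had 234, 162 and 281 in GFPhi and 64, 122 and 42 in Tomato-positive libraries (1.66, adjusted p = 0.126). Neither gene overlapped between the groups.

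Cnn1, Actg2 and Des, none of which passed as higher in GFP-positive over Tomato-positive colon cells, did not pass here either, although their groups did not overlap. Cnn1 had 159, 97 and 137 in GFPhi and 58, 24 and 25 in Tomato-positive libraries (1.94, adjusted p = 0.091). Actg2 had 45, 28 and 28 in GFPhi and 4, 11 and 19 in Tomato-positive libraries (1.67, adjusted p = 0.465). Des had 316, 88 and 142 in GFPhi and 4, 43 and 78 in Tomato-positive libraries (2.62, adjusted p = 0.454). Tested as a difference between the tissues, 0 of the 10 members passed, and 4 had an unadjusted p under 0.05, where 0.0924% of 12981 genes passed and 8.06% had an unadjusted p under 0.05. The difference was 2.73 for Cnn1 (interval 1.31 to 4.15, adjusted p = 0.20), 2.40 for Actg2 (0.61 to 4.19, adjusted p = 0.487) and 2.91 for Des (0.48 to 5.33, adjusted p = 0.552). That test set log2 ratios from separately normalised tables against each other. In the colon, Des was read together with Gm15179 and Tagln with Pcsk7.

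Casq2 stood at 186, 278 and 129 in GFPhi and at 6, 0 and 32 in Tomato-positive libraries. Every GFPhi library was above every Tomato-positive library, but the Tomato-positive values stood for about 3, 0 and 45 reads and scattered. The log2 fold change of 4.95 had an SE of 1.13 (adjusted p = 0.12). It passed without Tomato-positive replicate 2, the library at 0 (3.64, adjusted p = 0.0307), and without replicate 3 (6.16, adjusted p = 0.0135).

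Against GFPlo cells, GFPhi cells of the small intestine were higher in 7 of 10 members, where 0.384% of 12226 genes passed, 0.368% higher and 0.0164% lower. Members thus made up 7 of the 47 genes called, which is a description, as they were chosen with earlier results of these data known. The groups did not overlap for 9 members, against 13.6% of genes. The members' median log2 fold change was 2.70, against −0.03 over all genes. This comparison and the one with Tomato-positive cells share the GFPhi libraries.

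Casq2 had 4, 13 and 8 normalised counts in GFPlo libraries, about 3, 23 and 12 reads, so the 186, 278 and 129 of GFPhi cells gave a log2 fold change of 4.46 (SE 0.52, adjusted p = 0.00153). Cnn1 had 159, 97 and 137 in GFPhi against 7, 14 and 22 in GFPlo libraries (3.20, SE 0.50, adjusted p = 0.0105). Myh11 had 234, 162 and 281 in GFPhi and 28, 25 and 36 in GFPlo libraries (2.87, SE 0.38, adjusted p = 0.00453). Each GFPhi library of these 3 genes was several times the highest GFPlo library. Tagln stood at 762, 1064 and 1165 in GFPhi and 159, 139 and 131 in GFPlo libraries (2.77, adjusted p = 0.00151), Myl9 at 863, 1191 and 718 in GFPhi and 142, 143 and 131 in GFPlo libraries (2.70, adjusted p = 0.00151) and Tpm2 at 939, 1329 and 660 in GFPhi and 154, 157 and 122 in GFPlo libraries (2.70, adjusted p = 0.00197). The GFPlo libraries agreed closely among themselves in these 3 genes. Acta2 had 2358, 1508 and 3279 in GFPhi and 378, 338 and 611 in GFPlo libraries (2.40, SE 0.36, adjusted p = 0.00826).

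Mylk did not pass between GFPhi and GFPlo cells, at 5039, 3537 and 6506 in GFPhi and 1475, 3089 and 1945 in GFPlo libraries (1.24, adjusted p = 0.315). The lowest GFPhi library was just above the highest GFPlo one. Actg2, at 45, 28 and 28 in GFPhi and 11, 3 and 18 in GFPlo libraries (1.80, adjusted p = 0.571), and Des, at 316, 88 and 142 in GFPhi and 28, 170 and 27 in GFPlo libraries (1.62, adjusted p = 0.666), did not pass either. Without the trend and robust variance settings of limma, every call of this comparison was lost (adjusted p = 0.0922 to 0.173). With those settings, calls of 3 genes rested on single libraries. Acta2 missed the threshold without GFPhi replicate 1 (adjusted p = 0.0511), GFPhi replicate 3 (0.0504) or GFPlo replicate 1 (0.0625), Myh11 without GFPhi replicate 3 (0.0504), and Cnn1 without GFPhi replicate 1 (0.101) or 3 (0.0904).

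Between GFPlo and Tomato-positive cells limma called 0 of the 10 members, where 0.675% of 12445 genes passed, 0.112% higher and 0.562% lower. An unadjusted p under 0.05 was found for 1 member and for 16.9% of all genes. The member was Myh11, with 28, 25 and 36 in GFPlo and 64, 122 and 42 in Tomato-positive libraries (−1.21, adjusted p = 0.262).

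Markers differed between the small intestine groups too. The telocyte and subepithelial myofibroblast markers summed to 3170 to 5443 in GFPhi, 942 to 1166 in GFPlo and 762 to 1074 in Tomato-positive libraries. The visceral smooth muscle markers summed to 814 to 1330 in GFPhi, 353 to 508 in GFPlo and 492 to 582 in Tomato-positive libraries. Pericyte and vascular muscle markers summed to 3583 to 5976 in GFPhi, 5614 to 8378 in GFPlo and 1923 to 2629 in Tomato-positive libraries. Within that list the groups split by gene. Rgs5, a pericyte regulator of G protein signalling, was at 2406 to 4079 in GFPhi and 5191 to 7693 in GFPlo libraries, while the potassium channel gene Kcnj8 was at 120 to 222 in GFPhi, 5 to 33 in GFPlo and 0 to 2 in Tomato-positive libraries. Higd1b was listed at 0 in all 3 Tomato-positive libraries. Cd34-positive fibroblast markers summed to 5811 to 9803 in GFPhi, 8534 to 11991 in GFPlo and 15148 to 19408 in Tomato-positive libraries. The 4 interstitial cell of Cajal markers summed to a mean of 191 in GFPhi, 38.0 in GFPlo and 49.7 in Tomato-positive libraries. The 5 endothelial markers summed to 11 to 141 in GFPhi and 33 to 125 in GFPlo libraries. In Tomato-positive libraries they summed to 491 in replicate 1, whose Acta2 of 1473 was the highest of its group, and to 163 and 47 in the other two. Their part in the contractile values was not tested.

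**Figure D3:**
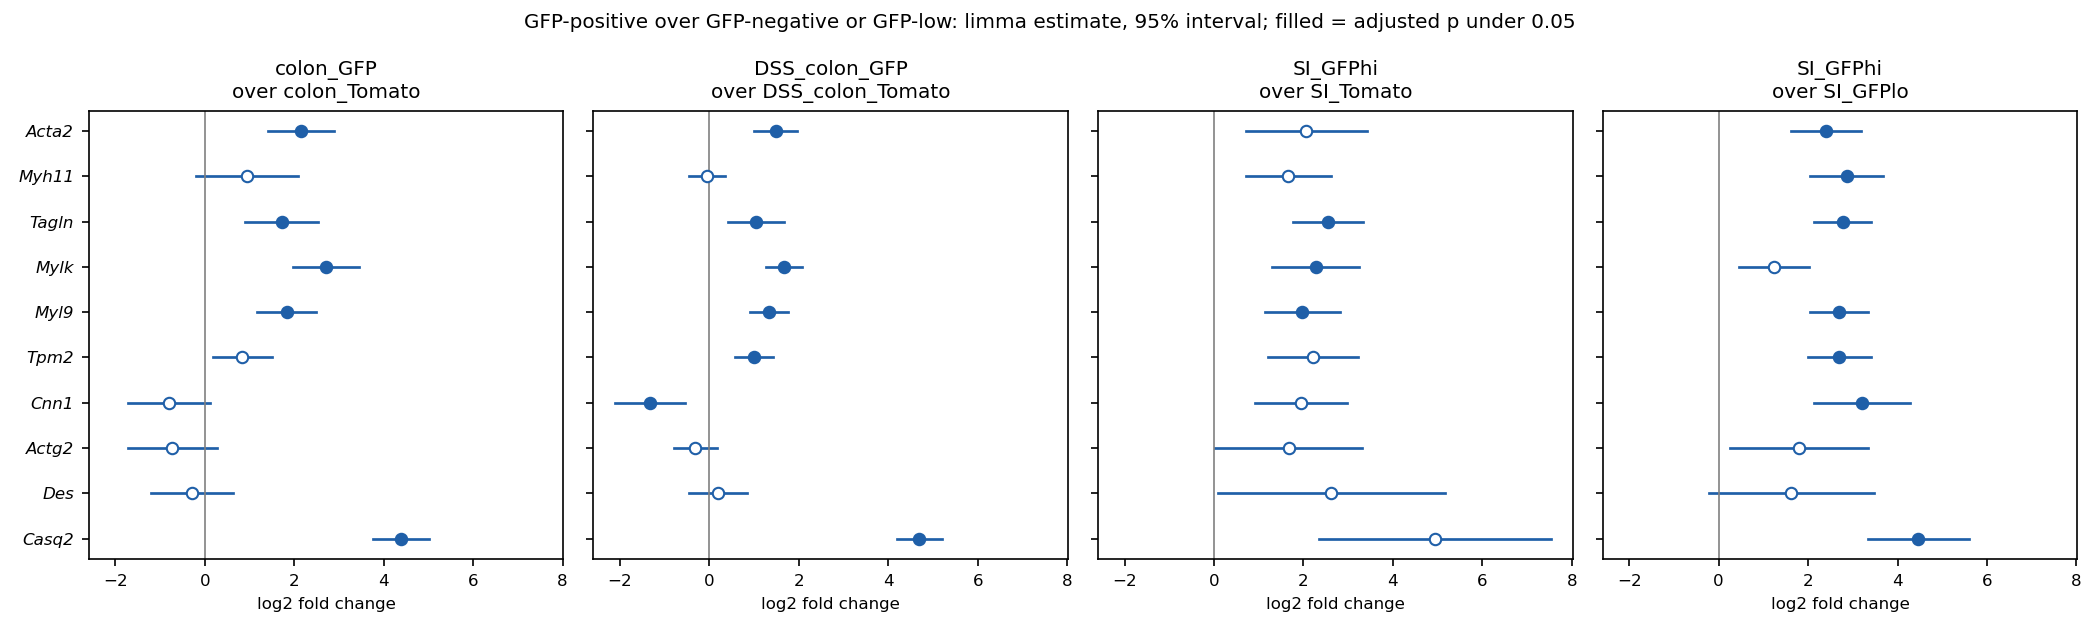
Log2 fold changes of the 10 genes with 95% intervals from limma for GFP-positive over Tomato-positive normal colon, the same after DSS, GFPhi over Tomato-positive small intestine, and GFPhi over GFPlo, with filled points for an adjusted p under 0.05. Casq2 lies farthest to the right in each panel. Cnn1, Actg2 and Des lie near or left of 0 in the colon panels and right of 0 in the small intestine panels.

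DSS was compared with normal colon within the GFP-positive and within the Tomato-positive cells, on the scale that these tables share. These comparisons reuse the sorted libraries already described. The labels number the DSS and the normal colon libraries in separate ranges. DSS therefore cannot be told apart from anything else that differed between these sets of libraries. In GFP-positive cells 3 of 10 members passed, Actg2 higher and Myl9 and Tpm2 lower, where 19.7% of 12976 genes passed, 10.2% higher and 9.46% lower. The groups did not overlap for 6 members, against 38% of all genes, and the members' median log2 fold change was −0.37, against −0.01.

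On the common scale Actg2 had 73, 53 and 66 normalised counts in GFP-positive DSS libraries and 41, 20 and 34 in GFP-positive normal libraries. All DSS values were higher, at a log2 fold change of 1.04 (SE 0.30, adjusted p = 0.0295). Myl9 had 585, 677 and 814 in DSS and 886, 1135 and 1322 in normal libraries (−0.68, SE 0.22, adjusted p = 0.0412), and Tpm2 had 415, 334 and 349 in DSS and 503, 669 and 538 in normal libraries (−0.63, SE 0.20, adjusted p = 0.0392). Both were lower in every DSS library. Leaving out any 1 of the 3 GFP-positive DSS libraries ended all 3 calls, with adjusted p of 0.0553 to 0.113 for Actg2, 0.0605 to 0.171 for Myl9 and 0.0702 to 0.153 for Tpm2. Leaving out GFP-positive normal replicate 2 ended them too (Actg2 0.0787, Myl9 0.0579, Tpm2 0.0833), and leaving out normal replicate 3 ended that of Myl9 (0.101).

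Several members lay near the threshold in GFP-positive cells. Acta2 had 1596, 1369 and 1986 in DSS and 2180, 2238 and 3412 in normal libraries (−0.65, adjusted p = 0.0679). Myh11 had 105, 109 and 111 in DSS and 145, 165 and 375 in normal libraries (−0.93, adjusted p = 0.054). Mylk, with 8193, 7694 and 9288 in DSS and 4457, 5621 and 6624 in normal libraries, gave 0.61 (adjusted p = 0.0689). Scaled to equal totals, Acta2 (−0.77, adjusted p = 0.0315) and Myh11 (−1.06, adjusted p = 0.021) passed as well. Casq2 had 460, 432 and 703 in DSS and 607, 615 and 925 in normal libraries (−0.43, adjusted p = 0.22) and overlapped.

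In Tomato-positive cells Mylk alone passed, where 10.3% of 13025 genes passed, 6.03% higher and 4.27% lower. Libraries did not overlap for 2 members, Mylk and Casq2, against 31.3% of genes. Mylk had 2225, 3117 and 2637 normalised counts in DSS and 532, 992 and 1125 in normal libraries. Every DSS library was above every normal one, at a log2 fold change of 1.65 (SE 0.32, adjusted p = 0.00789). Without DSS replicate 2 it missed the threshold (1.53, adjusted p = 0.0593). Acta2 stood at 838, 500 and 478 in DSS and 383, 848 and 587 in normal libraries (0.02, adjusted p = 0.971). Casq2 had 21, 15 and 22 in DSS and 38, 39 and 25 in normal libraries (−0.77, adjusted p = 0.176).

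The response to DSS was then tested as a difference, GFP-positive minus Tomato-positive. Limma called 0 of the 10 members, where 0.0519% of 13488 genes passed. An unadjusted p under 0.05 was found for 1 member and for 8.01% of all genes. The member was Mylk, with a difference of −1.04 (interval −1.88 to −0.20, adjusted p = 0.534). For Actg2 it was 0.41 (interval −0.67 to 1.5) and for Casq2 0.34 (interval −0.46 to 1.14), so a difference of 1 log2 unit in favour of GFP-positive cells lies inside both intervals.

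Sorted cells were then set against the unsorted cells of the same tissue, which share these libraries. In the normal colon 6 members passed for GFP-positive cells, 2 higher and 4 lower, where 21.8% of 14649 genes passed, 7.72% higher and 14.1% lower. In Tomato-positive cells 8 of 10 passed, all lower, where 18.8% of 14617 genes passed, 5.81% higher and 13% lower. The actin Acta2 was at 2607, 2668 and 4053 in GFP-positive and 3000, 3753 and 3468 in unsorted libraries, an overlap (−0.16, adjusted p = 0.783). In Tomato-positive cells, at 455, 1005 and 697, it was lower than in unsorted cells (−2.31, SE 0.38, adjusted p = 0.00258).

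Actg2, the enteric actin, had 49, 23 and 41 normalised counts in GFP-positive libraries of the normal colon, against 211, 170 and 457 in unsorted ones (−2.79, SE 0.43, adjusted p = 0.00122). Cnn1 was lower in GFP-positive cells, at 72, 27 and 68 in GFP-positive and 334, 231 and 444 in unsorted libraries (−2.65, SE 0.42, adjusted p = 0.00145). Des was lower as well, at 94, 53 and 107 in GFP-positive and 401, 295 and 241 in unsorted libraries (−1.90, SE 0.35, adjusted p = 0.00349). In these 3 genes every unsorted library was above every sorted one. Myh11 had 173, 196 and 446 in GFP-positive and 620, 4877 and 1636 in unsorted libraries, of which replicate 2 had the highest Acta1 of its group and replicate 3 the next (−2.78, adjusted p = 0.0184). Without unsorted replicate 2 it still passed (−2.02), and it missed the threshold without GFP-positive replicate 1 (adjusted p = 0.0685) or 2 (0.0777) or unsorted replicate 3 (0.0517).

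Casq2 was the reverse, at 726, 733 and 1099 in GFP-positive and 229, 72 and 139 in unsorted libraries (2.65, SE 0.42, adjusted p = 0.00137). Myl9 was higher too, at 1059, 1354 and 1570 in GFP-positive and 726, 348 and 608 in unsorted libraries (1.29, adjusted p = 0.0269). The call of Myl9 was lost without any 1 GFP-positive library or unsorted replicate 2, with adjusted p up to 0.112. Mylk lay above in every GFP-positive library, 5329, 6702 and 7868 in GFP-positive and 4312, 3756 and 2524 in unsorted libraries, without passing (0.93, adjusted p = 0.0998). The skeletal and cardiac muscle markers summed to 17 to 69 in GFP-positive and 177 to 1936 in unsorted libraries, and the visceral smooth muscle markers to 1377 to 1851 in GFP-positive and 2902 to 6693 in unsorted libraries. Their part in these values was not tested. For Tomato-positive over unsorted cells, calls of 3 genes rested on single libraries. They were missed without Tomato-positive replicate 1 or unsorted replicate 3 for Actg2 (adjusted p up to 0.0661), without Tomato-positive replicate 2 or 3 or unsorted replicate 1 or 3 for Casq2 (up to 0.0698), and without Tomato-positive replicate 1 or 2 or unsorted replicate 1 or 2 for Des (up to 0.071).

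For GFP-positive over unsorted cells of the DSS colon 7 members passed, 3 higher and 4 lower, where 37.1% of 13662 genes passed, 15.8% higher and 21.3% lower. Casq2 (3.40, adjusted p = 3.68e-06), Mylk (1.31, adjusted p = 0.00123) and Myl9 (0.87, adjusted p = 0.0208) were higher. Cnn1 (−2.70, adjusted p = 0.000232), Actg2 (−1.74, adjusted p = 0.000153), Myh11 (−1.06, adjusted p = 0.00447) and Des (−0.91, adjusted p = 0.0345) were lower, the same 4 genes as in the normal colon. Des and Myl9 each lost the call when 1 library was left out. For Des these were GFP-positive replicates 2 and 3 and unsorted replicate 3 (adjusted p up to 0.128), and for Myl9 GFP-positive replicates 2 and 3 and unsorted replicate 2 (up to 0.0946). In unsorted DSS libraries Actg2 had 213, 135 and 211, Cnn1 had 234, 128 and 265, and Casq2 had 35, 30 and 65. For Tomato-positive over unsorted cells 7 passed, all lower, where 33% of genes passed and 19.3% were lower. Of these calls, Casq2 missed the threshold without Tomato-positive replicate 2 or unsorted replicate 3 (adjusted p up to 0.0741). Des missed it without Tomato-positive replicate 1 or 2 or unsorted replicate 3 (up to 0.125), and Tagln without Tomato-positive replicate 2 or 3 or unsorted replicate 2 (up to 0.127).

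**Figure D4:**
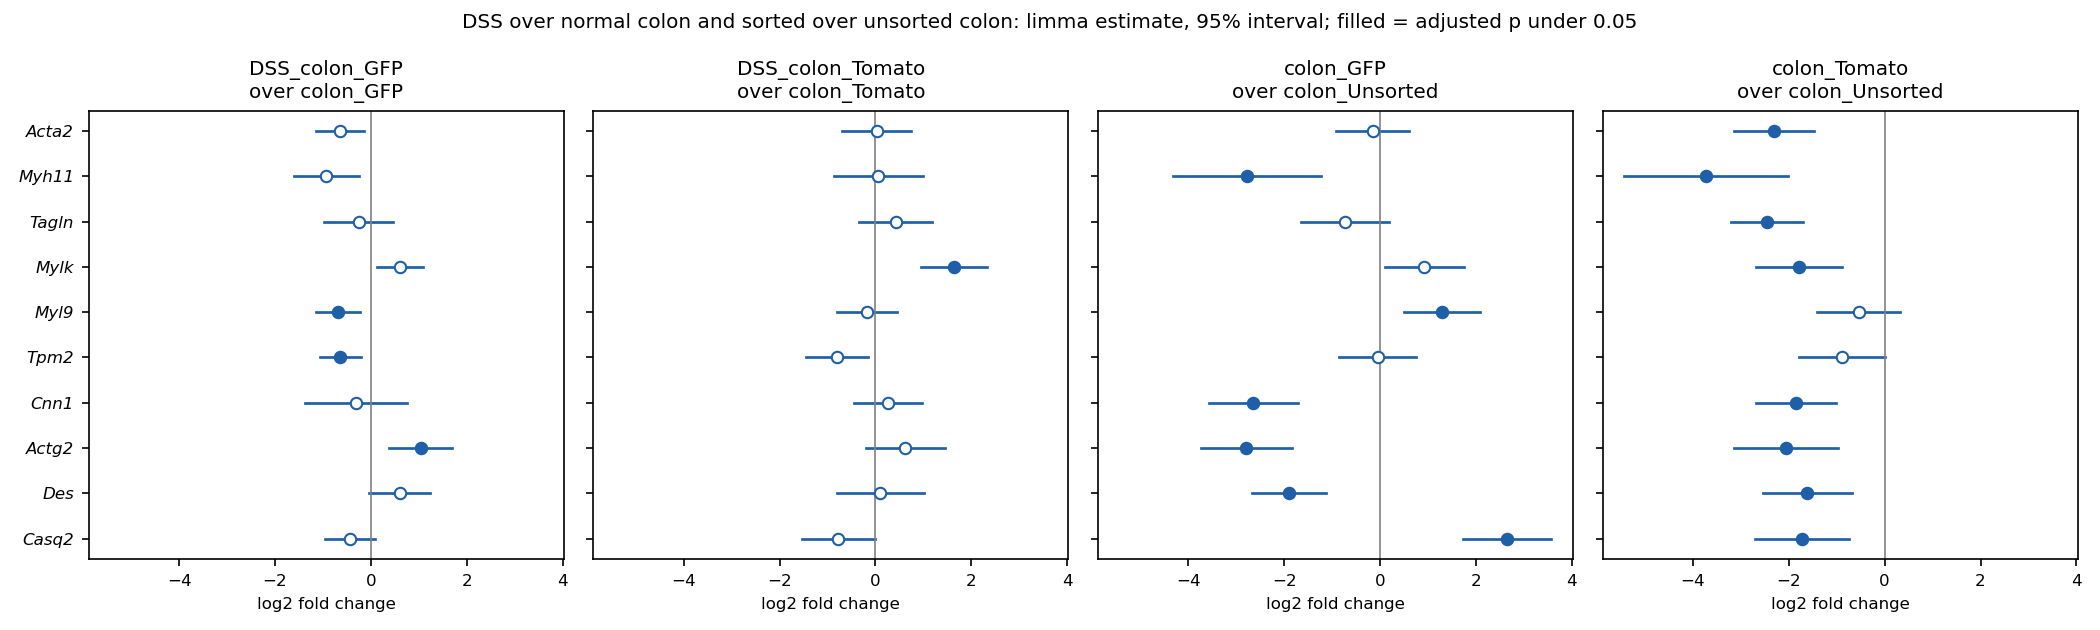
Log2 fold changes of the 10 genes with 95% intervals from limma for DSS over normal colon in GFP-positive and Tomato-positive cells and for GFP-positive and Tomato-positive over unsorted normal colon, with filled points for an adjusted p under 0.05. Mylk is the 1 filled point of the Tomato-positive DSS panel, and in GFP-positive over unsorted cells Casq2 and Myl9 lie right of 0 while Myh11, Cnn1, Actg2 and Des lie left.

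In the small intestine the unsorted group had 2 libraries, and the median log2 fold change of all genes was −0.14 for GFPhi, −0.14 for GFPlo and −0.26 for Tomato-positive over unsorted cells. Against that shift 6 members passed for GFPhi cells, all higher, where 17.2% of 13369 genes passed and 6.13% were higher. They were Casq2 (2.66, adjusted p = 0.00486), Tagln (2.36, adjusted p = 0.00254), Tpm2 (2.29, adjusted p = 0.00406), Acta2 (1.81, adjusted p = 0.0298), Myh11 (1.80, adjusted p = 0.0126) and Myl9 (1.40, adjusted p = 0.0214). Actg2, at 45, 28 and 28 in GFPhi and 38 and 52 in unsorted libraries (−0.43, adjusted p = 0.594), Des (−0.13, adjusted p = 0.902) and Cnn1 (0.30, adjusted p = 0.621) did not pass and overlapped. GFPlo cells were lower in Cnn1 (−2.90, adjusted p = 0.00602) and Myl9 (−1.30, adjusted p = 0.00925), 2 of 10 members where 22.8% of 13434 genes passed, 9.13% higher and 13.7% lower. For Tomato-positive cells limma called 0 of 10, where 11.5% of 13374 genes passed, and 4 members had an unadjusted p under 0.05, against 27.7% of all genes. Without either unsorted library, which leaves 1, every call of GFPhi and GFPlo over unsorted cells was lost, with adjusted p of 0.0846 to 0.327. Acta2 also missed the threshold without GFPhi replicate 1 or 3, Myh11 without GFPhi replicate 3 and Myl9 without GFPhi replicate 1.

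Values relative to Acta2 in the same library describe the make-up of the contractile set without the scale of a library. In GFP-positive libraries of the DSS colon Casq2 stood at 28.8% to 35.4% of the Acta2 value, and in those of the normal colon at 27.1% to 27.8% (mean 27.5% ± 0.366, SD, n = 3). In Tomato-positive libraries it was 2.52% to 4.42% after DSS and 4.16% to 9.89% in the normal colon, and in unsorted normal colon 1.92% to 7.63%. The ratio was nearly the same in the 3 GFP-positive normal libraries although Acta2 itself varied between 2607 and 4053. GFPhi libraries of the small intestine ran from 3.93% to 18.4% and so lay below the GFP-positive colon libraries, a description across scales that was not tested.

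Cnn1 took the opposite order in the normal colon. It was 1.01% to 2.76% of Acta2 in GFP-positive and 9.47% to 17.4% in Tomato-positive libraries. Actg2 was 0.862% to 1.88% of Acta2 in GFP-positive and 7.69% to 11.4% in Tomato-positive libraries. Neither gene's ratios overlapped between these groups, although the levels themselves did. Acta2, the divisor, was itself higher in GFP-positive cells (log2 fold change 2.15), so a gene of equal level has a lower ratio there. The separation is therefore not a finding apart from that of Acta2, and the share of all genes with such ratios was not computed. In GFPhi cells of the small intestine Cnn1 was 4.18% to 6.74% of Acta2.

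**Figure D5:**
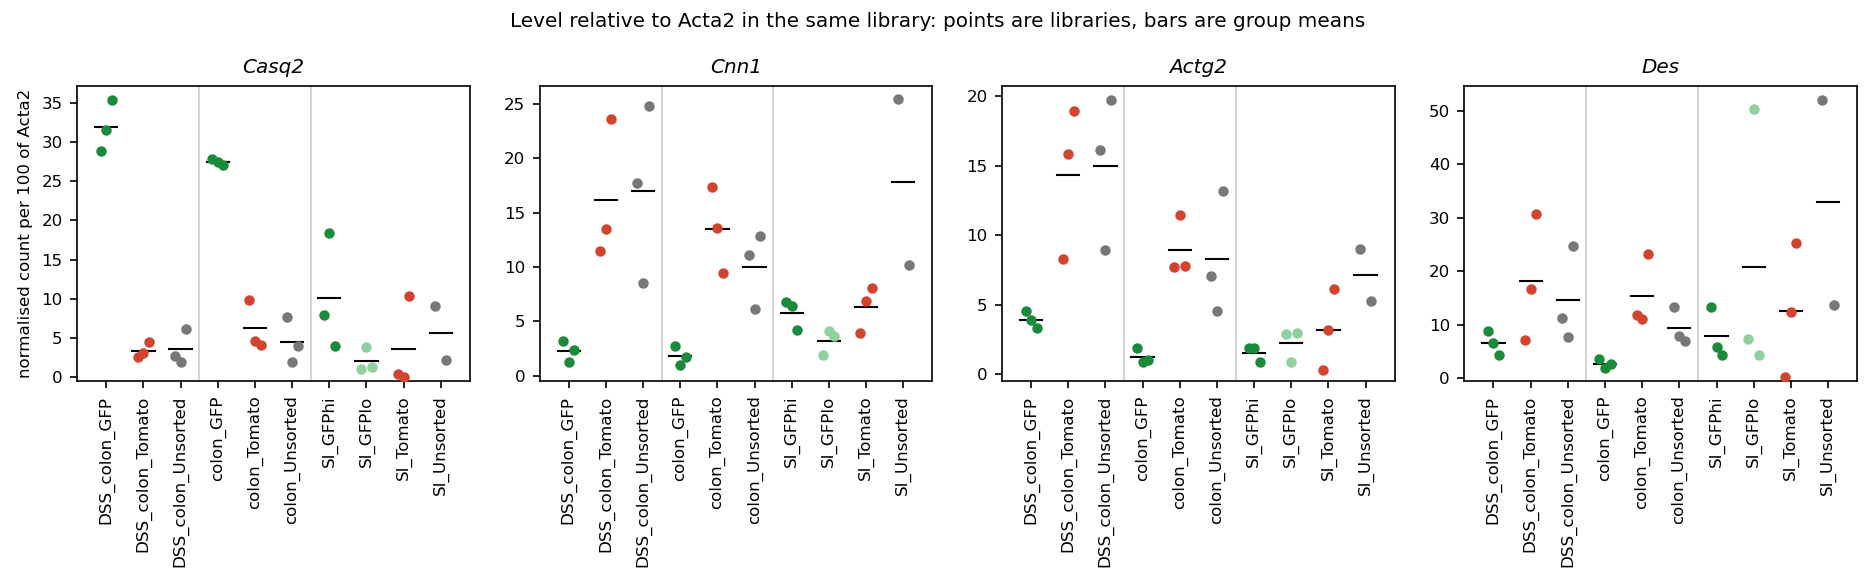
Casq2, Cnn1, Actg2 and Des in each library as the normalised count per 100 of Acta2, with points for libraries and bars for the means of the 10 groups. Casq2 lies between 27.1 and 35.4 in GFP-positive colon libraries and at or below 18.4 in the other groups. In each colon set Cnn1 and Actg2 lie lower in GFP-positive than in Tomato-positive and unsorted libraries.

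Within the 7 actomyosin genes the median Pearson r of the 21 pairs of log2 values was 0.58 over the 9 normal colon libraries, 0.43 over the 9 DSS libraries and 0.77 over the 11 small intestine libraries, with pairs from −0.61 to 0.93. Libraries of one sort group are not independent points. Cnn1 followed the mean of Actg2 and Des in the normal colon (r = 0.94) and the DSS colon (r = 0.83), with r = 0.61 in the small intestine. For Myh11 the values were 0.78 in the normal colon, 0.71 in the DSS colon and 0.46 in the small intestine, and for Casq2 they were −0.26 in the normal colon, −0.20 in the DSS colon and 0.66 in the small intestine. Of 12414 genes, the non-members most like the mean of the 7 actomyosin genes were Pydc3, Tspan13, Alcam, Cd200, Trp53i11, Cd38, Cobl and Tm4sf1, at a mean r of 0.85 to 0.82 over the 3 sets. Those most like Actg2 and Des were Cers6, Plbd1, Tuba4a, Lcp2, Nt5dc2, Pkp4, Slc30a1 and Aim2, at 0.91 to 0.83. In both colon sets Actg2 and Des were highest on average in unsorted libraries, which also held the highest immune marker sums. A high r over such libraries does not show that genes are expressed in the same cells. The part of the unsorted libraries in these r values was not tested.

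Wider contractile lists moved in part. Of 23 tested genes of the smooth muscle program, 4 were higher and 2 lower in GFP-positive than in Tomato-positive cells of the normal colon (median 0.40), and 6 were higher and 3 lower after DSS (median 0.32). Over all genes tested, 2.97% were higher and 3.01% lower in the normal colon, and 8.22% higher and 8.9% lower after DSS. Pdlim3, a Z-line LIM protein, was higher in both (1.88, adjusted p = 0.00203 in the normal colon and 3.11, adjusted p = 3.35e-07 after DSS), as was Synpo2, an actin-bundling protein (1.68, adjusted p = 0.0028 in the normal colon and 1.69, adjusted p = 6.86e-05 after DSS). Hhip, a Hedgehog-binding protein that marks some intestinal muscle, was lower in both (−1.18, adjusted p = 0.0115 in the normal colon and −1.72, adjusted p = 7.23e-05 after DSS). Myocd, the myocardin coactivator of serum response factor, was lower after DSS, at 5.67 ± 4.04 normalised counts in GFP-positive and 22.3 ± 4.93 in Tomato-positive cells (SD, n = 3 each, −1.98, adjusted p = 0.0126).

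Among calcium handling genes, 3 of 10 tested were higher and 1 lower in GFP-positive normal colon, and 3 of 12 higher and 2 lower after DSS. Beside these stand 2.97% higher and 3.01% lower of all genes in the normal colon, and 8.22% higher and 8.9% lower after DSS. Mrvi1, which encodes a substrate of cGMP kinase at the inositol trisphosphate receptor, was higher in GFP-positive cells of the normal colon at 1055 ± 383 normalised counts, against 93.0 ± 30.8 in Tomato-positive cells (SD, n = 3 each, 3.47, adjusted p = 0.000429). It was higher after DSS (3.30, adjusted p = 2.55e-07) and in GFPhi over Tomato-positive small intestine (4.15, adjusted p = 0.00738). Kcnma1, the large-conductance potassium channel of muscle, was lower in both colon comparisons (−2.02, adjusted p = 0.00874 in the normal colon and −2.47, adjusted p = 0.000124 after DSS). Cav1, the caveolin of muscle caveolae, was higher in GFP-positive normal colon (2.30, adjusted p = 0.000686). In GFP-positive DSS cells it had 367 ± 66.7 normalised counts against 2191 ± 557 in GFP-positive normal cells on their common scale (SD, n = 3 each, −2.56, adjusted p = 1.17e-05). It was lower after DSS in Tomato-positive cells as well, at 103 ± 30.9 in DSS and 440.0 ± 46.0 in normal libraries (SD, n = 3 each, −2.13, adjusted p = 0.000532).

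The cytoskeletal relatives that are not restricted to muscle were called in 1 direction between the sorts. Of all genes 2.97% were higher and 3.01% lower in GFP-positive normal colon, and 8.22% were higher and 8.9% lower after DSS. Of the 15 relatives, 3 were higher and 0 lower in GFP-positive normal colon, among them Cnn2 (1.74, adjusted p = 0.00206) and Actn1 (1.74, adjusted p = 0.00227), and 6 were higher and 0 lower after DSS. For GFPhi over Tomato-positive small intestine their median was 0.97, against 0.06 over all genes. Of the regulators, Srf, the serum response factor, was higher in GFP-positive DSS cells than in Tomato-positive ones (1.02, adjusted p = 0.00161), and Klf4, a factor known to repress muscle genes, was lower (−1.21, adjusted p = 0.0117). Myocd, which is also on the list of regulators, was lower in the same comparison, as given above. Klf4 was also lower in GFPhi than in Tomato-positive small intestine (−2.37, adjusted p = 0.00745). Between DSS and normal GFP-positive cells 4 of 15 regulators were higher and 3 lower, where 10.2% of all genes were higher and 9.46% lower. Cyr61, a known target of serum response factor, was among the higher ones (2.36, adjusted p = 0.00112), and in Tomato-positive cells it was higher by 1.71 (adjusted p = 0.00741). The lists were chosen with earlier results of these data known, and their counts are descriptions.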

How the data were processed

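RNA of 29 libraries in 10 groups was read from its 3′ end with the QuantSeq kit for Ion Torrent, per the labels' protocols. The submitters' processing notes name TopHat2, Bowtie2, DESeq and mm10 without versions. No source used here states the counting tool or its strand setting. Per the file headers, the 14 deposited tables, of 15019 to 18042 genes, hold the authors' normalised counts, which are whole numbers and so are treated as a score rather than as raw counts. They also hold the authors' deposited p-values and log2 fold changes, which are not printed. Because the values are normalised, the count test was not used.

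Each pair of groups was fitted within its own table with limma 3.58.1 (R 4.3.3) on log2(value + 1), with trend and robust variance. A gene was tested where either group averaged 10 or more, and p-values were Benjamini-Hochberg adjusted over all of them (two-sided, threshold 0.05). A fold change on this scale understates that of low genes. An exact permutation test of 3 against 3 libraries cannot go below p = 0.1 and was not used. The difference in DSS response used the scale that the 4 sorted colon groups share. The difference between tissues was chosen after seeing the data. The script was tested on simulated data.

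The 10 genes were always named. Of each wider list up to 2 called genes per direction were named, those with the largest changes. Of all genes, the 8 nearest to each profile by mean Pearson r were named. The members and lists were chosen with earlier results of these data known. Promoters came from RefSeq (GRCm38.p6), and 7 of the 10 genes matched by symbol. Depth was estimated from the steps between low values, and it covers counting alone. Replicate numbers were not used as pairs. Alternatives were a pseudocount of 5, no filter or a mean of at least 50, equal totals, limma without trend and robust variance, a replicate block, and leaving out each library.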

Additional observations from a re-analysis of the deposited data

How the results depend on the processing

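Over 16 comparisons the 10 genes gave 62 calls among 160 values, and 0 of the calls changed direction under any alternative run. Of 96 counts of called members under other settings, 91 stayed within 1.5 times the count given in the report. For GFP-positive DSS over GFP-positive normal colon, 3 members were called, against 5 with equal totals and 0 without trend and robust variance. For GFPhi over Tomato-positive small intestine, 3 were called, against 5 with a pseudocount of 5 and 0 without trend and robust variance. For GFPhi over GFPlo, 7 were called, against 0 without trend and robust variance. The cause was not tested.

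Without 1 library, the number of called members ran as follows. It was 4 to 5 (5 with all libraries) for GFP-positive over Tomato-positive normal colon and 5 to 6 (7) for the same after DSS. It was 0 to 4 (3) for DSS over normal GFP-positive cells and 0 to 2 (1) for Tomato-positive cells. It was 0 to 3 (3) for GFPhi over Tomato-positive, 0 to 0 (0) for GFPlo over Tomato-positive and 4 to 7 (7) for GFPhi over GFPlo small intestine. Against unsorted cells it was 4 to 6 (6) for GFP-positive and 6 to 7 (8) for Tomato-positive normal colon, 5 to 7 (7) and 4 to 7 (7) for GFP-positive and Tomato-positive DSS colon, and 0 to 6 (6) for GFPhi, 0 to 3 (2) for GFPlo and 0 to 1 (0) for Tomato-positive small intestine. Where 1 unsorted small intestine library was left, it was assumed to vary like the other group.

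Directions changed for values that were not called. Des in GFP-positive over Tomato-positive normal colon (−0.29) ranged from −0.72 to 0.066, with 0.02 without GFP-positive replicate 2 and 0.066 without Tomato-positive replicate 3. Des after DSS (0.20) ranged from −0.092 to 0.55, with −0.03 without GFP-positive replicate 1 and −0.092 without Tomato-positive replicate 1. Myh11 after DSS (−0.06) was 0.018 with equal totals. In DSS over normal GFP-positive cells, Tagln (−0.25) ranged from −0.48 to 0.19, at 0.19 without normal replicate 1, and Cnn1 (−0.30) from −0.75 to 0.19, at 0.19 without DSS replicate 2.

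Same-numbered libraries deviated together with correlations of −0.297 to 0.363 over 39 pairs, 13 of them over 0.1. In 0 of 14 comparisons were all pairs over 0.1. So few correlations per comparison cannot show whether same-numbered libraries share an animal. With the replicate block the number of called members was 8, against 7, for Tomato-positive over unsorted DSS colon and 3, against 2, for GFPlo over unsorted small intestine. It was the same in the other comparisons, at 5 and 7 for GFP-positive over Tomato-positive normal and DSS colon. In DSS over normal GFP-positive cells Tpm2 was lost and Myh11 gained (adjusted p = 0.034), and for GFPhi over Tomato-positive cells Myl9 was lost (adjusted p = 0.0778) and Tpm2 gained (adjusted p = 0.0453). Depth limits Casq2 in GFPlo and Tomato-positive small intestine, where it rested on about 0 to 45 reads per library.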

Other observations

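The equality of Tagln with Pcsk7, and of Des with Gm15179, was part of a wider pattern in the colon tables. Gene pairs on opposite strands that overlap and average at least 20 normalised counts were compared in every library, and a pair was counted as equal where its values differed by at most 5% or 3 units in each of them. In the normal colon 145 of 1408 pairs (10.3%) were equal, in the DSS colon 152 of 1239 (12.3%), and in the small intestine 0 of 690. In the small intestine Tagln had 762, 1064 and 1165 and Pcsk7 had 32, 3 and 70 in the same GFPhi libraries. The strand setting behind each set of tables is not given in the sources used here.

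Some genes of the wider lists moved between DSS and normal colon in both sorted populations, on the shared scale. Of all genes 19.7% passed in GFP-positive and 10.3% in Tomato-positive cells. The share of all genes that passed in both is not given, so these genes are examples and their agreement cannot be judged. Foxs1, a forkhead gene known from perivascular cells, was higher in GFP-positive (2.96, limma adjusted p = 0.00657) and in Tomato-positive cells (2.39, adjusted p = 0.00667). Mustn1, a small nuclear protein of muscle and skeleton, was lower in both (−1.82, adjusted p = 0.000122 in GFP-positive and −1.21, adjusted p = 0.0195 in Tomato-positive cells). Cacna1c, the pore subunit of the L-type calcium channel, was higher in both (1.61, adjusted p = 0.0298 in GFP-positive and 1.92, adjusted p = 0.0174 in Tomato-positive cells). Cnn3, a calponin that is not restricted to muscle, was higher in both (1.23, adjusted p = 0.00282 in GFP-positive and 1.09, adjusted p = 0.0262 in Tomato-positive cells), and Vim, the intermediate filament vimentin, was lower in both (−1.14, adjusted p = 0.00417 in GFP-positive and −1.07, adjusted p = 0.0377 in Tomato-positive cells). Cav1 was lower and Cyr61 higher in both, with the values given in the report. The libraries of the 2 populations are separate, but the sources used here do not say whether they share animals. In both populations DSS cannot be told apart from anything else that differed between the DSS and the normal libraries.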
